A study of Mus musculus with 10 samples.

Results

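Thyroid hormone action in liver was examined through 9 genes that sense, activate, carry or bind the hormone or answer to it, out of the 55401 gene identifiers counted in each library. The genes were chosen by symbol, matched to their Ensembl identifiers, and comprise the receptors Thrb and Thra, the deiodinases Dio1 and Iyd, the transporter Slc16a10, the binding proteins Ttr, Serpina7 and Crym, and Hectd3, a ubiquitin ligase gene that the study used together with Dio1 to grade the response to T3. All 9 passed the filter on low counts. The 10 libraries came from 5 liver samples of wild-type mice (WT) and 5 of littermates with a liver-specific THRB knockout (labelled THRB-KO, here Thrb hep-/-), on the C57Bl6/J strain, kept on standard chow with no treatment. According to the study's supplement, the knockout combines a loxP-flanked Thrb with a Cre driven by the Afp promoter. That promoter is active in the parenchymal cells of the liver and their precursors, so that Thrb in cells outside this lineage is not targeted. Whether the WT littermates carried the Cre is not given in the sources used here. Age, sex and hour of collection of these animals are not given in the sources used here. The labels number 5 samples per genotype without stating that each came from a separate mouse, and the p-values measure the spread between these samples.

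Thyroid hormone enters hepatocytes through membrane carriers, after travelling in blood on thyroxine-binding globulin, transthyretin and albumin. Deiodinases then remove iodine from it: the type 1 enzyme, encoded by Dio1, is the main one of adult liver and both activates thyroxine to T3 and clears inactive forms, while Dio2 activates and Dio3 inactivates the hormone elsewhere. T3 binds the nuclear receptors THRA and THRB, which sit on DNA with RXR, often at AGGTCA half-sites, and THRB is the prevailing form in hepatocytes. Dio1 is a classic T3-induced gene that is used as a readout of hepatic thyroid hormone action.

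The promoters of the targeted gene, of the member with the strongest change and of Hectd3 are shown because these are the receptor and the 2 genes by which the study read T3 response. Each line gives RefSeq's 250 bases before to 50 after a start site on GRCm38.p6, 5′ to 3′ on the gene's strand, with any AGGTCA half-site on either strand in capitals. For Thrb this is the upstream one of its RefSeq windows, chr14:17660710-17661009 on the plus strand. Dio1 is at chr4:107307119-107307418 on the minus strand and Hectd3 at chr4:116995084-116995383 on the plus strand.
Thrb: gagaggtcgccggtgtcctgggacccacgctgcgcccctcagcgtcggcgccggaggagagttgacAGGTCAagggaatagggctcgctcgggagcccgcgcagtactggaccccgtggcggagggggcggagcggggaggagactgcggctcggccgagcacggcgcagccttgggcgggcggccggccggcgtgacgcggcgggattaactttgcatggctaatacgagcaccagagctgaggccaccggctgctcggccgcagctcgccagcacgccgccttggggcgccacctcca
Dio1: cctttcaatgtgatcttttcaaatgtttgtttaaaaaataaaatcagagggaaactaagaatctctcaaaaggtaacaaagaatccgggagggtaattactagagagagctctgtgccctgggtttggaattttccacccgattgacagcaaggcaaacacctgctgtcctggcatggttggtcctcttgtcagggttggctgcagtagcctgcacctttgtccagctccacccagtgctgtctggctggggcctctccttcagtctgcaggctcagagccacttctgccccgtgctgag
Hectd3: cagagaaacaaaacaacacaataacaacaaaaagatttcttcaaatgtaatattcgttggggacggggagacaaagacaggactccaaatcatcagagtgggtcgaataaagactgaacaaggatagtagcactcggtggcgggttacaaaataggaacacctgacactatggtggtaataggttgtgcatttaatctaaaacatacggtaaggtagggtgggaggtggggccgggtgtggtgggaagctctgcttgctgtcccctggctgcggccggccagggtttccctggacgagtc
The Thrb window shown held 1 half-site, 184 bases before the start, in a sequence of 72.7% GC. Another Thrb window, at chr14:17981394-17981693 with 46.0% GC, held no half-site. None was found in the windows of Dio1 and Hectd3, nor in those of Slc16a10, Serpina7 and Iyd. Of all 32851 promoter windows, 16.3% held the half-site, and the direct repeat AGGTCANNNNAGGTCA, which contains it at both ends, was in 5, or 0.0152%. A match to these letters is a description and not a binding site, and absence from 300 bases leaves the rest of a gene unread.

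Total counts ranged from 26477195 to 28590704 per library, so that 3 counts, used as the detection floor, correspond to 0.105 to 0.113 CPM, the count scaled to the library total. Hepatocyte markers were abundant in each library (summed normalized CPM from 85332 to 124530) and 0 of 8 passed the test between genotypes, whereas exocrine pancreas markers summed to 21.4 at most. Acute-phase genes were lower in Thrb hep-/- livers in 15 of 23 tested, and none was higher. Their summed normalized CPM ranged from 38368 to 88897 in WT and from 25247 to 42200 in Thrb hep-/- livers. The 8 Kupffer cell and leukocyte markers all had a negative fitted change, with a median log2 fold change of −0.66. None passed the test, and 4 had an unadjusted p below 0.05 (edgeR). The 8 markers summed to 108 to 399.9 in WT and 121 to 245.5 in Thrb hep-/- livers. In whole liver, fewer cells of a type and less RNA per cell cannot be told apart.

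Dio1 fell steeply in Thrb hep-/- livers and Thrb itself fell modestly, while the other 7 genes did not pass the test. Thus 2 of the 9 were called at an adjusted p below 0.15, the study's threshold, when the quasi-likelihood test of edgeR was adjusted by Benjamini-Hochberg over 12234 genes, and both also passed 0.05. Of all genes tested, 4.08% were called, 2.57% as lower and 1.51% as higher. In 3 of the 9 (Thrb, Dio1 and Ttr) the samples of the genotypes did not overlap, against 3.64% of all genes tested. The median log2 fold change of the 9 was −0.0013, beside 0.00054 over all genes tested.

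**Figure D1:**
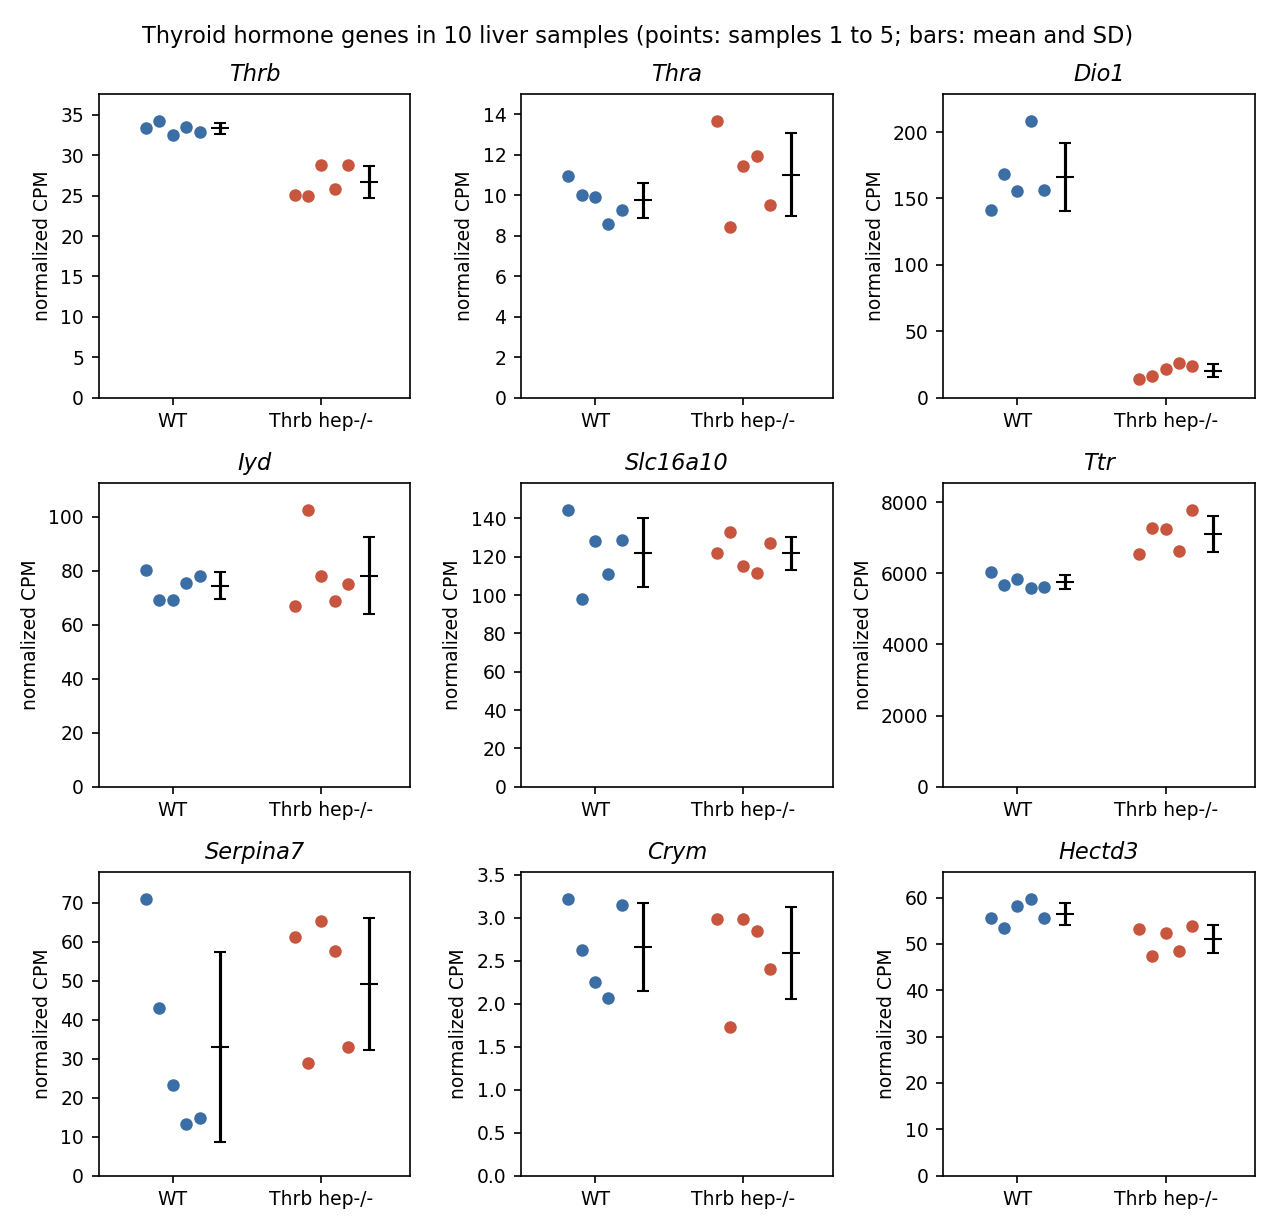
Normalized CPM of the 9 genes (vertical axes, each from 0) in WT and Thrb hep-/- livers, with 1 point per sample in the order 1 to 5 and the mean with its SD beside the points. Dio1 drops from a mean of 166 to 20.3, Thrb from 33.3 to 26.7, and the points of Serpina7 scatter most widely within WT.

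The targeted gene, Thrb (ENSMUSG00000021779), encodes the T3 receptor beta and lies on chromosome 14 from 17660261 to 18038090 on the plus strand of GRCm38. Taking the WT mean of 33.3 normalized CPM as 100%, the Thrb hep-/- samples 1 to 5 were at 75.4%, 74.8%, 86.3%, 77.7% and 86.4%, and the WT samples lay between 97.6% and 102.7%. The knockout samples were therefore all below the WT samples, with most of the transcript still counted. The mean went from 33.3 ± 0.643 to 26.7 ± 1.93 normalized CPM (SD, n = 5 each), a log2 fold change of −0.32 with a standard error of 0.067 (adjusted p = 0.0359, edgeR quasi-likelihood test). When a component of the acute-phase genes, whose r with the knockout genotype was −0.85, entered the model, the estimate was −0.33 and the adjusted p close to 1. Samples of WT livers were close together for this gene. Their coefficient of variation was 1.93%, below that of all but 0.27% of the genes tested, whose median was 11.8%, and it was 7.22% in Thrb hep-/- livers. At 858 to 979 counts per WT library, counting error alone can spread values this much, so the low figure is not shown to be a trait of the gene. The counts are summed over the exons of the gene, so they do not show whether the remaining reads come from transcripts without the excised part, and recombination was not measured in these files.

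Thra, which encodes the other T3 receptor (ENSMUSG00000058756; chromosome 11, 98740638 to 98769006, plus strand), did not pass the test between genotypes. WT samples 1 to 5 had 10.9, 9.9995, 9.90, 8.56 and 9.28 normalized CPM. Thrb hep-/- samples 1 to 5 had 13.7, 8.44, 11.5, 12.0 and 9.51, which spread over both sides of the WT range. The difference of 0.18 on the log2 scale (standard error 0.13) had an adjusted p of 0.596 (edgeR), and its 95% interval ran from −0.10 to 0.45. Part of the exon sequence of Thra, 263 bases or 5.7%, is shared with Nr1d1, a clock repressor gene on the opposite strand. Reads there could not be assigned because strand was not used and reads over several genes were dropped, which lowers the level of Thra. Nr1d1 itself ranged from 36.9 to 106.2 normalized CPM in WT and from 72.9 to 165.6 in Thrb hep-/- livers. Over the 10 samples, the log2 levels of the pair had a Pearson r of 0.59 (permutation p = 0.0693) and a Spearman rho of 0.58 (permutation p = 0.0879), and r was 0.40 without the 2 samples farthest from the median of Nr1d1 and 0.55 for deviations from the genotype means. This was the only relation computed of its kind, and was chosen after the values were seen.

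Within a sample, the balance between the counts of the receptor genes shifted towards Thra. Thra counts per kb of exon were 55.7%, 49.7%, 51.8%, 43.4% and 48.0% of those of Thrb in WT samples 1 to 5. In Thrb hep-/- samples 1 to 5 they were 92.5%, 57.6%, 67.8%, 78.5% and 56.2%. The lowest knockout value lay just above the highest WT value, so the groups did not overlap. The mean share rose from 49.7% ± 4.54 to 70.5% ± 15.2 (SD, n = 5 each), a difference of 0.48 in log2 ratio (p = 0.00794 in a two-sided exact permutation test, the lowest value open to 5 against 5). The fall of the deleted gene enters this ratio by design, and a ratio shows unequal change without showing that Thra stayed constant. The share depends on the exon lengths used, whereas the difference in log2 ratio does not. Counts per gene do not separate transcript forms, so a shift between hormone-binding receptors was not measured.

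**Figure D2:**
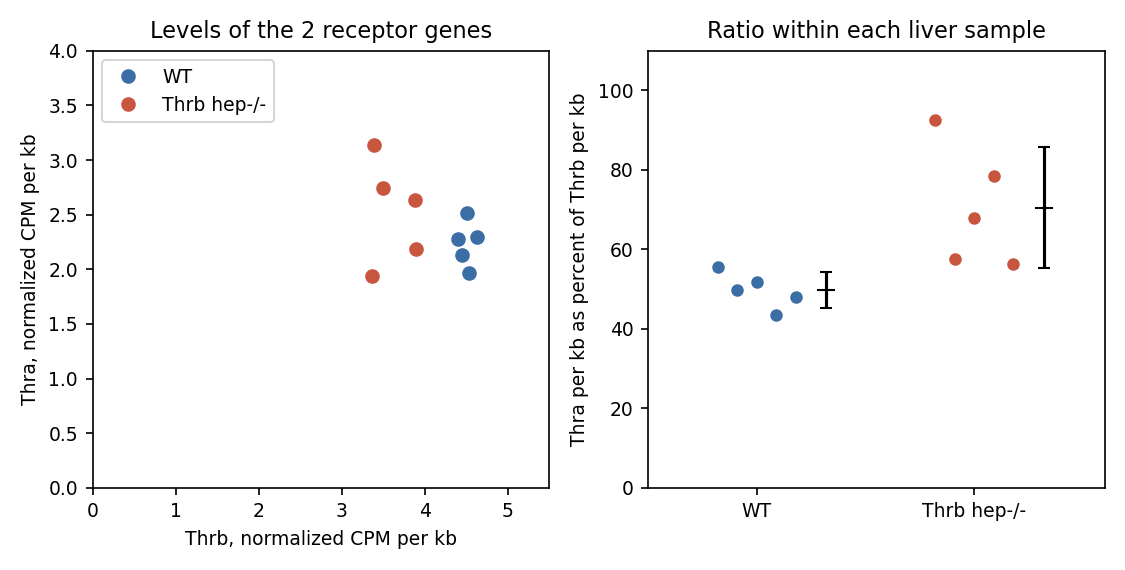
Left, Thra against Thrb in normalized CPM per kb of exon, 1 point per liver sample; right, Thra as a percentage of Thrb within each sample, with mean and SD. WT points cluster at a share of 43.4% to 55.7%, and knockout points run from 56.2% to 92.5%.

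Dio1 (ENSMUSG00000034785; chromosome 4, 107291465 to 107307169, minus strand) encodes the type 1 deiodinase. Its normalized CPM were 141.2, 168.6, 156, 208.2 and 156.1 in WT samples 1 to 5. They were 13.8, 16.3, 21.9, 25.9 and 23.6 in Thrb hep-/- samples 1 to 5. The lowest WT sample was thus several times above the highest knockout sample. Means of 166 ± 25.5 and 20.3 ± 5.06 (SD, n = 5 each) gave a log2 fold change of −3.03 with a standard error of 0.18, an 8.17-fold lower level (adjusted p = 1.26e-05, edgeR quasi-likelihood test). This was the smallest p of all genes tested. The knockout level was 0.122 of the WT level, with a 95% interval of 0.0935 to 0.16, so that RNA of this gene remained well above the detection floor in each knockout liver. It was called under each of the 18 alternative fits, at log2 fold changes between −3.34 and −2.92.

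The sample with the most Thrb was not the one with the most Dio1 in either genotype. Among Thrb hep-/- livers, samples 3 and 5 had the highest Thrb, at 28.7 and 28.8 normalized CPM, but the highest Dio1 was in sample 4. Samples 1 and 2 had the least Thrb, at 25.1 and 24.9, and also the least Dio1, at 13.8 and 16.3. In Thrb, however, sample 4 was close to them, at 25.9. Thrb in the knockout libraries rests on 665 to 838 counts, so its order among these samples is uncertain. Within WT livers Dio1 spanned 141.2 to 208.2 while Thrb spanned 32.5 to 34.2. That narrow span of Thrb rests on 858 to 979 counts per library, so its order among WT samples is uncertain. With 5 samples per genotype no correlation was computed within a group.

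Acute-phase RNA moved with genotype as well, and its component was lower in each Thrb hep-/- sample than in each WT sample, so the part of acute-phase level and that of genotype cannot be told apart. With the component in the model, Dio1 was at a log2 fold change of −3.34 (adjusted p = 0.00358, edgeR). In the same fit Thrb (−0.33), Ttr (0.32) and Hectd3 (−0.25) kept their sign, each at an adjusted p close to 1.

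**Figure D3:**
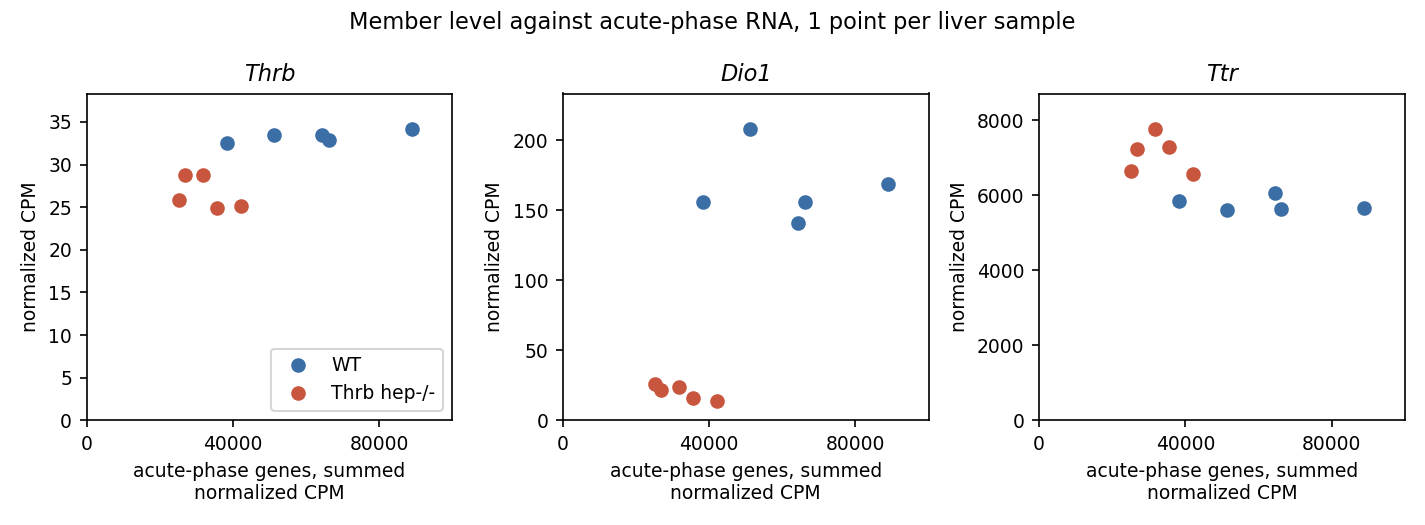
Normalized CPM of Thrb, Dio1 and Ttr (vertical axes) against the summed normalized CPM of the acute-phase genes (horizontal axis), 1 point per liver sample. Dio1 stays between 141.2 and 208.2 over the whole WT range of 38368 to 88897 and below 26 in each knockout liver.

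Iyd (ENSMUSG00000019762), whose product recovers iodide from iodotyrosines and does not act on the hormone itself, was at 69.2 to 80.3 normalized CPM in WT and 67.0 to 102.5 in Thrb hep-/- livers. The groups overlapped, and the log2 fold change was 0.070 (95% interval −0.17 to 0.31; adjusted p = 0.846, edgeR). Knockout sample 2 was the highest of the 10, and without it the sign turned (−0.040). So of the 2 genes for dehalogenating enzymes among the members, Dio1 passed the test and Iyd did not; the difference between them was not tested. Dio2, the type 2 deiodinase, had no count in any WT sample, and 19, 0, 0, 12 and 58 counts in Thrb hep-/- samples 1 to 5. It stayed under the filter, and 3 of 5 knockout samples were above the floor of 3 counts (exact permutation test of the normalized CPM, two-sided, p = 0.167). In an edgeR fit of all genes without the filter its adjusted p was 0.559. Dio3, the inactivating type 3 enzyme, had 1 to 6 counts in WT and 3 to 6 in Thrb hep-/- livers, too few to compare.

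Ttr (ENSMUSG00000061808) encodes transthyretin, a hepatocyte product that carries thyroxine and, with its partner, retinol. WT samples 1 to 5 had 6049, 5662, 5835, 5601 and 5619 normalized CPM. Thrb hep-/- samples 1 to 5 had 6553, 7276, 7238, 6641 and 7777. Each knockout sample was above each WT sample, by a small margin at the nearest pair. The mean went from 5753 ± 189.5 to 7097 ± 504 (SD, n = 5 each), a log2 fold change of 0.30 with a standard error of 0.098, which did not pass the threshold (adjusted p = 0.179, unadjusted p = 0.00881, edgeR). It did pass with DESeq2 (adjusted p = 0.000221), with limma-voom (adjusted p = 0.1496) and in edgeR without Thrb hep-/- sample 1 (adjusted p = 0.145), over a range of adjusted p from 0.000221 to close to 1 among the alternatives. Transthyretin is itself a plasma protein that falls in the acute phase, and the acute-phase sum was lower in the group where Ttr was higher. Whether the acute-phase level bears on Ttr here was not tested, and it cannot be told apart from genotype. With the acute-phase component in the model the log2 fold change of Ttr was 0.32 (adjusted p close to 1, edgeR).

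Serpina7 (ENSMUSG00000031271), for thyroxine-binding globulin, varied more between WT livers than any other member. WT samples 1 to 5 had 71.0, 42.9, 23.3, 13.2 and 14.7 normalized CPM, and Thrb hep-/- samples 61.2, 28.98, 65.3, 57.5 and 32.9. The knockout values lay inside the WT range. The coefficient of variation in WT was 73.5%, above that of 99.4% of the genes tested. On the log2 scale the difference was 0.57, with a standard error of 0.48 (adjusted p = 0.663, edgeR), and its 95% interval from −0.50 to 1.65 spans levels from 0.709 to 3.13 times that of WT. Without WT sample 1, the highest of the 10, the difference was 1.07 (adjusted p = 0.302), and with the clock component in the model it was 0.24 (adjusted p = 0.843).

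Slc16a10 (ENSMUSG00000019838) encodes the aromatic amino acid carrier MCT10, which also moves T3. It ranged from 97.7 to 144.3 normalized CPM in WT and from 111.8 to 133.2 in Thrb hep-/- livers. The log2 fold change was −0.0013 (adjusted p = 0.998, edgeR), with a 95% interval of −0.22 to 0.22. Crym (ENSMUSG00000030905), for a T3-binding protein of the cytosol, was the lowest member and overlapped between groups, at 2.07 to 3.22 normalized CPM in WT and 1.72 to 2.99 in Thrb hep-/- livers. On the log2 scale it differed by −0.037, with a standard error of 0.19 (adjusted p = 0.959, edgeR).

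Hectd3 (ENSMUSG00000046861; chromosome 4, 116995317 to 117005277, plus strand) encodes a HECT-type ubiquitin ligase. WT samples 1 to 5 had 55.6, 53.5, 58.2, 59.7 and 55.6 normalized CPM. Thrb hep-/- samples had 53.3, 47.4, 52.4, 48.5 and 53.8, and only the highest of them reached into the WT range. The means, 56.5 ± 2.42 and 51.1 ± 2.93 (SD, n = 5 each), differed by −0.15 on the log2 scale, with a standard error of 0.064. This did not pass the test (adjusted p = 0.347, unadjusted p = 0.0425, edgeR), and none of the alternatives brought it past the threshold. Hectd3 shares 376 exon bases, 7.67%, with the antisense gene 1700021J08Rik, which was at 0 to 0.143 normalized CPM, around the detection floor.

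**Figure D4:**
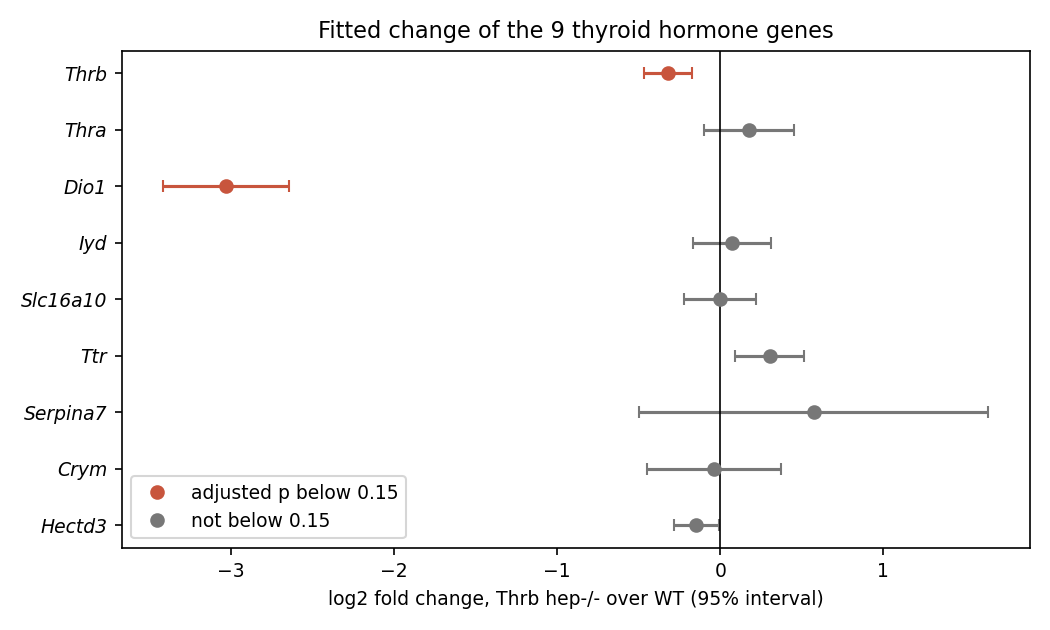
Log2 fold change of Thrb hep-/- over WT for the 9 genes, with 95% intervals from edgeR's quasi-likelihood fit; red marks an adjusted p below 0.15. Dio1 (−3.03) and Thrb (−0.32) are red, and the intervals of Thra, Iyd, Slc16a10, Serpina7 and Crym include 0.

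To set levels between genes, normalized CPM were divided by kb of exon. This length holds all annotated exons, used in liver or not, without bases shared with other genes. Levels between genes are therefore approximate. WT livers held 4851 ± 159.8 normalized CPM per kb of Ttr, 84.3 ± 13.0 of Dio1, 45.9 ± 3.12 of Iyd, 16.6 ± 2.45 of Slc16a10 and 13.5 ± 9.92 of Serpina7 (SD, n = 5). Below these came Hectd3 at 12.5 ± 0.534, Thrb at 4.50 ± 0.0869, Thra at 2.24 ± 0.203 and Crym at 0.785 ± 0.152. The range of Serpina7, from 5.41 to 28.98, held those of Slc16a10 and Hectd3, so the order of these neighbours is within their spread. In Thrb hep-/- livers Dio1 dropped to 10.3 ± 2.57, below Iyd at 48.2 ± 8.79 and in the range of Hectd3 at 11.3 ± 0.648. Thrb at 3.61 ± 0.26 was still above Thra at 2.53 ± 0.473, and in each knockout sample the order was the same.

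Other genes that handle thyroid hormone were mostly within the spread between samples. Of 20 listed genes for other deiodinases, carriers, binding proteins, RXR partners and conjugating enzymes, 17 were tested, 1 was called higher and none lower, with a median log2 fold change of 0.027. Among all genes tested, 1.51% were called higher and 2.57% lower. The gene called was Slc3a2, the heavy chain that anchors the LAT amino acid carriers, which went from 32.9 ± 3.30 to 43.2 ± 6.06 normalized CPM (SD, n = 5 each; log2 fold change 0.39, standard error 0.10, adjusted p = 0.0898, edgeR). Its samples overlapped, at up to 37.9 in WT and from 35.8 in Thrb hep-/- livers, and the call was kept in 10 of 18 alternative fits. It was lost without WT sample 2, 4 or 5 or Thrb hep-/- sample 3 or 4 (adjusted p from 0.159 to 0.225, edgeR). The replicate number as block (adjusted p = 0.186) and the clock component (adjusted p = 0.156) also ended the call, and with the acute-phase component the log2 fold change was 0.095 (adjusted p close to 1). The LAT carrier genes Slc7a5 and Slc7a8 had negative fitted changes and did not pass the test. Slc7a5 was at −0.47 (adjusted p = 0.317, unadjusted p = 0.0317, edgeR) and Slc7a8 at −0.28 (adjusted p = 0.640, edgeR). Both were named after their values were seen.

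Hepatic carriers and partners named here did not pass the test. Slco1b2, an organic anion carrier of hepatocytes, was at 810.1 ± 93.0 and 907.8 ± 145.8 normalized CPM in WT and Thrb hep-/- livers (SD, n = 5 each), and Slc10a1, the bile acid carrier NTCP, at 794.7 ± 122.2 and 809.8 ± 114.7. Rxra, the receptor partner, was at 758 ± 42.2 and 793.5 ± 79.0, and Alb, for albumin, at 74999 ± 14065 and 78588 ± 6230. Their log2 fold changes lay between 0.027 and 0.16, with adjusted p from 0.607 to 0.957 (edgeR).

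DIO1 is a selenoprotein, and the genes of other selenoproteins and of their synthesis factors stayed within the spread between samples. Of 15 genes tested none was called by edgeR, none had an unadjusted p below 0.05, and DESeq2 and limma-voom called none either. Their log2 fold changes ran from −0.18 to 0.23 with a median of 0.075. Secisbp2, which binds the selenocysteine insertion element, had 15.9 ± 1.38 and 15.7 ± 2.25 normalized CPM (SD, n = 5 each), and Selenop, the plasma selenium carrier, 4434 ± 516.9 and 4576 ± 904.4.

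Genes listed here as raised by thyroid hormone in liver moved in both directions. Of 23 listed, 22 were tested, 2 were called lower and 1 higher, with a median log2 fold change of −0.015. The shares over all genes tested were 2.57% lower and 1.51% higher. Abcg5 and Abcg8, whose products together export sterols, were lower: Abcg5 went from 127.4 ± 19.3 to 72.5 ± 10.3 normalized CPM (log2 fold change −0.81, adjusted p = 0.00631) and Abcg8 from 158 ± 29.8 to 99.4 ± 16.7 (log2 fold change −0.67, adjusted p = 0.0489, edgeR). Both had groups that did not overlap, though for Abcg8 the closest samples were at 118.6 and 118.2. These neighbouring genes were both called in all fits except that with the acute-phase component, with which Abcg5 was at −0.41 and Abcg8 at −0.32 (adjusted p close to 1 for each).

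Me1, the cytosolic malic enzyme and a textbook T3-induced gene, was higher: 205.7 ± 48.5 in WT and 354.8 ± 76.2 in Thrb hep-/- livers (SD, n = 5 each; log2 fold change 0.79, standard error 0.19, adjusted p = 0.0652, edgeR). WT samples reached 275.1 and knockout samples started at 240.4. It lost the call with the acute-phase component (adjusted p close to 1) and without WT sample 5 (adjusted p = 0.153) or Thrb hep-/- sample 3 (adjusted p = 0.159). Thrsp, the T3-responsive Spot 14 gene, was at 381.4, 439.9, 551.2, 515.3 and 1900 normalized CPM in WT samples 1 to 5 and at 150.7 to 486.6 in Thrb hep-/- livers. Its difference of −1.28 on the log2 scale (standard error 0.50, adjusted p = 0.304, edgeR) rested in part on WT sample 5, without which it was −0.60. With a covariate in the model it was −0.59 for the clock component and −0.084 for the acute-phase one, and with the replicate number as block it passed the threshold at −1.10 (adjusted p = 0.0827, edgeR).

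**Figure D5:**
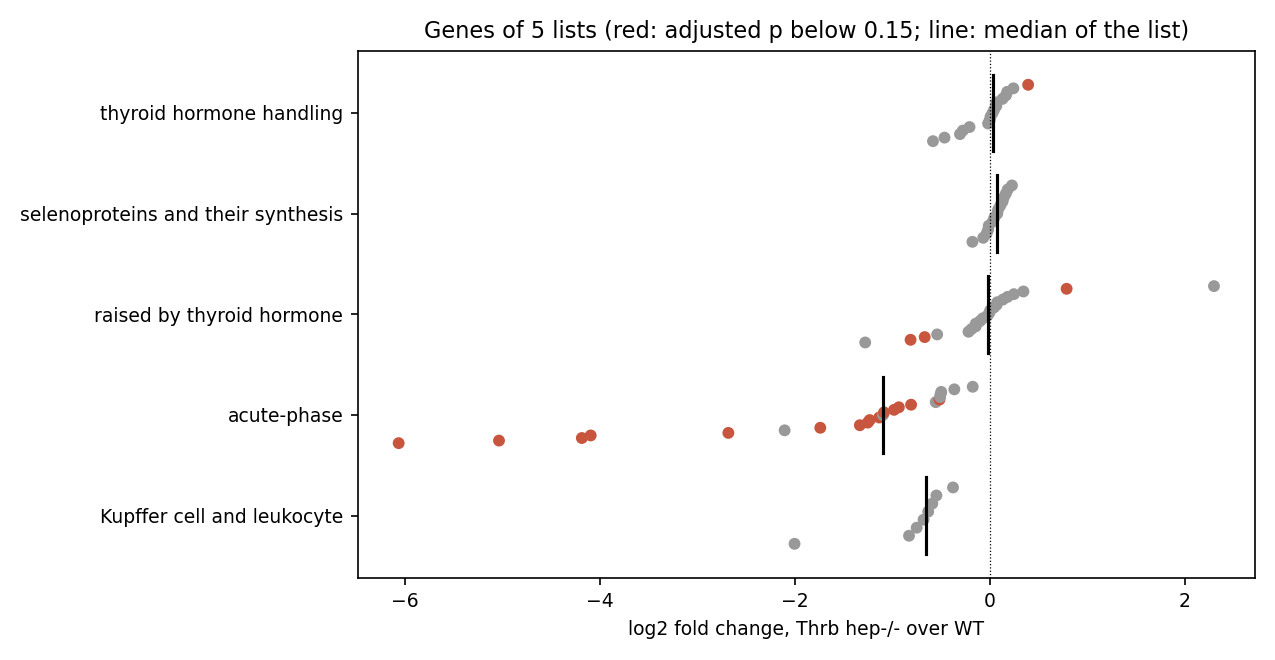
Log2 fold changes (horizontal axis) of the tested genes in 5 lists (rows), 1 point per gene, with red for an adjusted p below 0.15 and a line at each list's median. The thyroid hormone handling and selenoprotein lists sit around 0 (medians 0.027 and 0.075), whereas the acute-phase list has a median of −1.10.

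The profiles most like those of Thrb and Dio1 over the 10 samples were sought among all genes tested, by the root mean square difference between log2 CPM profiles after each was centred and scaled. For Thrb they were the long noncoding 4933404O12Rik (0.307), Dio1 (0.309) and Tbc1d24 (0.358). Tbc1d24, a Rab regulator gene, was at 27.1 to 30.7 normalized CPM in WT and 18.1 to 23.1 in Thrb hep-/- livers. For Dio1 they were Mup17 (0.269), Moxd1 (0.283) and Mup16 (0.290). Mup17 and Mup16 are near-identical members of the major urinary protein cluster, so their counts are uncertain, with knockout means of 3.59 and 7.11 normalized CPM against 735.1 and 93.9 in WT. Moxd1, a monooxygenase gene, went from a mean of 58.0 to 0.339 normalized CPM. These genes were picked for their likeness, so their values are a description. Each profile was scaled over all 10 samples, so the step between genotypes enters the likeness whatever its size. Closeness therefore does not show that genes vary together within a genotype.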

How the data were processed

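Liver RNA of 5 WT and 5 Thrb hep-/- samples was sequenced as stranded mRNA libraries (DNBSEQ). Per the methods and the submitters' processing notes, the authors mapped reads on mm10 (GRCm38) with HISAT2 2.2.1 and deposited whole-number counts per Ensembl gene from HTSeq 0.9.1, without strand and without reads that mapped to several places or genes, which lowers genes that overlap others or have near-identical copies. The authors' own edgeR comparison was also deposited and was not used.

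Here, the 12234 genes that reached 1 CPM in 5 or more libraries were tested with edgeR 4.0.16 (R 4.3.3): TMM factors, quasi-likelihood F-test with robust settings, Benjamini-Hochberg adjustment, threshold 0.15. Normalized CPM use TMM-scaled library sizes. Each standard error is the size of the log2 fold change over the square root of F. Totals of 26477195 to 28590704 counts set the precision, and detection floors cover counting error only. Single ratios were compared by exact permutation (SciPy in Python). The script was tested on simulated data. Exons, overlaps and coordinates are from GENCODE M21 on GRCm38, not the release the authors counted on, where 260 identifiers had no symbol. RefSeq promoters matched 6 of the 9 members; the others are Thra, Crym and Ttr.

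Named genes are the 9 members, list genes past the threshold, preset partner genes, genes sharing exon sequence with a member, and the 3 nearest profiles of Thrb and Dio1; 1 of the preset genes is not reported here. The members and lists were chosen with earlier results of these data known. Alternatives were RLE normalization, DESeq2 1.42.0, limma-voom (limma 3.58.1), no filter, filterByExpr, the replicate number as block, a component of acute-phase or of clock genes as covariate, leaving out each sample, and a threshold of 0.05.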

Additional observations from a re-analysis of the deposited data

Results flagged for a closer look

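Of 54 groups of 5 values examined for a sample far from the others, 6 held one, where chance gives about 1 in 20. None was a value of the 9 members. WT sample 5 was far from the other WT samples in 3 genes: Thrsp was at 1900 normalized CPM against 381.4 to 551.2, Rxra at 684 against 763 to 784.4, and Nr1d1 at 36.9 against 92.8 to 106.2. Slco1b2 was high in WT sample 1, at 972.3 against 746.8 to 794.2, and in Thrb hep-/- sample 2, at 1167 against 814.7 to 857.5. Thrb hep-/- sample 2 had a total of 27779196 counts, below those of the other knockout libraries, and the same sample had the highest Iyd of the 10.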

How the results depend on the processing

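Dio1 was called under each of the 18 alternative fits. The log2 fold change of Thrb lay between −0.35 and −0.29 with samples left out in turn, and its call was lost with the acute-phase component as covariate (−0.33), whose r with genotype was −0.85. With that component the count of all genes called fell from 499 to 7, that of members to 1 and those of the handling and T3-raised genes to 0. All genes called numbered 165 at an adjusted p of 0.05, 885 with DESeq2, and 222 to 665 with samples left out, with 227 without WT sample 2, 239 without WT sample 5 and 222 without Thrb hep-/- sample 3. The count of handling genes was also 0 at 0.05, with the clock component and with the replicate block, and 0 to 2 with samples left out. Leaving out samples gave 2 to 3 members and 2 to 4 T3-raised genes, 0 selenoprotein genes, and −3.13 to −2.92 for Dio1. Sample numbers did not pair the livers (correlations of same-numbered deviations from −0.20 to 0.0091). With the replicate block, 348 genes and 2 members were called, and the log2 ratio of Thra to Thrb stayed at 0.48 with an exact sign-flip p of 0.0625, the smallest 5 pairs allow. That ratio was 0.38 to 0.56 with samples left out.

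Signs turned in members whose change was near 0. Slc16a10 was at 0.0031 with RLE and with DESeq2, 0.0089 with limma-voom, 0.00029 with filterByExpr, 0.0081 with the replicate block, 0.028 with the clock component, and −0.071 to 0.069 with samples left out. Crym ranged from −0.11 to 0.082 and Iyd from −0.040 to 0.12 with samples left out, and Thra was at −8.6e-06 with the acute-phase component. Of the partner genes, with the acute-phase component Alb was at −0.11, Rxra at −0.14 and Nr1d1 at −0.28, and with the clock component Nr1d1 was at −0.072. With samples left out Slc10a1 ranged from −0.042 to 0.11, Selenop from −0.038 to 0.15 and Secisbp2 from −0.11 to 0.029. The causes were not tested. At this depth Dio3 had at most 6 counts in a library.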

Other observations

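Of the lists of other liver cell types, endothelial markers (7 tested) and cholangiocyte markers (3 tested) had none past the threshold with edgeR, with 3 and 2 at an unadjusted p below 0.05. Of the endothelial markers 4 were fitted higher and 3 lower. All 3 tested cholangiocyte markers were fitted lower, and all 7 stellate cell and fibroblast markers higher. Stellate cell and fibroblast markers had 1 of 7 called, Des, the intermediate filament gene, which was at 1.35 to 2.11 normalized CPM in WT and 2.81 to 3.29 in Thrb hep-/- livers (log2 fold change 0.67, adjusted p = 0.0574, edgeR). Clock genes had none of 13 called, with 1 at an unadjusted p below 0.05. Fgf21, a hormone gene of fasting and lipid stress, is on the list of genes raised by thyroid hormone and had the highest log2 fold change of that list. It was at 32.4 normalized CPM in Thrb hep-/- sample 4 and at 0.524 to 5.80 in the other 9 samples. The difference did not pass the test (log2 fold change 2.30, adjusted p = 0.324, edgeR). Des and Fgf21 were chosen after their values were seen.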
